A study of Mus musculus with 8 samples.

Results

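Penk, Vipr1, Gpr83, Gpr183, Ptger2 and Ptger4, 1 peptide precursor gene and 5 receptor genes for peptides, an oxysterol and prostaglandin E2, were followed through 8 RNA sequencing libraries, each made from CD4 T cells that had been sorted out of mouse spleen. These 6 genes, of 54837 identifiers in the count table, were selected from a list of neuropeptide, peptide receptor, adrenergic and prostaglandin receptor genes. They were chosen on levels and fold changes already computed from all 8 libraries, so their values and calls below are a description and support nothing further. No adrenergic receptor is among the 6. All 6 passed the filter on low counts, which kept 18851 genes.

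Cells of the GFPhi group (n = 3) were gated as positive for TIM-3, FLAG, GFP and FoxP3, and cells of the GFPlow group (n = 3) as positive for TIM-3 and FLAG and negative for GFP and FoxP3. Both came from mice that carry the FSF-TIM-3 allele together with Foxp3-eGFP-Cre-ERT2. The WT group (n = 2) was gated as negative for TIM-3 and FLAG and positive for GFP and FoxP3, from mice with Foxp3-eGFP-Cre-ERT2 and without FSF-TIM-3. All mice, the WT mice included, were given tamoxifen on 5 days in a row, and all carry the Foxp3-eGFP-Cre-ERT2 allele, which ties a tamoxifen-activated Cre to Foxp3, the factor that defines regulatory T (Treg) cells. GFPhi and WT differ in the TIM-3 allele and also in the gate on TIM-3 and FLAG, and their effects cannot be told apart. The libraries are numbered as in their titles. Whether each number is a separate animal is not stated, so p-values measure only the spread between these libraries.

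Neuropeptides are short signals cut from longer precursor proteins, and immune cells make some of them and carry receptors for others. Proenkephalin, the product of Penk, is cut into enkephalins, the ligands of the delta and mu opioid receptors. VPAC1, EP2 and EP4, encoded by Vipr1, Ptger2 and Ptger4, couple to the stimulatory G protein and raise cyclic AMP, a second messenger that restrains T cell activation. GPR183 (EBI2) directs lymphocytes along gradients of the oxysterol 7-alpha,25-dihydroxycholesterol, and GPR83 is a peptide receptor gene long used as a marker of mouse Treg cells.

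Total counts were 44446215 to 55388756 per library. Havcr2, the gene of TIM-3, was at 1077 to 1791 CPM (read counts relative to library size, scaled by TMM) in GFPhi, 127 to 538 CPM in GFPlow, and 0.876 and 0.172 CPM in WT libraries 1 and 2. Foxp3, part of the gates, was at 60.2 to 81 CPM in GFPhi, 1.97 to 4.82 CPM in GFPlow and 41.7 and 63.2 CPM in WT libraries 1 and 2. Cd3e and Cd4, which define CD4 T cells, were counted in every library, at 190 CPM or more and 109 CPM or more. WT library 1 stood apart, with 18599 genes detected (21248 to 22185 in the other 7). Its TMM factor was 0.694 (1.041 to 1.07 in the others). Ribosomal protein genes held 15.2% of its counts (6.12% to 6.97% in the others) and mitochondrial genes 6.54% (2.35% to 2.78%). A list of 4 platelet genes summed to 40.6 CPM in WT library 1 and to 0.187 to 5.3 CPM in the others. WT library 2 held both Xist (242 CPM) and the Y-linked gene Ddx3y (6.16 CPM), while each of the other 7 libraries held only one of them above 1 CPM. Fold changes of the 6 genes against WT are therefore given with and without WT library 1, and the second form rests on WT library 2 alone.

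Promoter letters are shown for Gpr83 and Ptger2, lowest in the GFPlow libraries, and for Vipr1, highest there. Ptger4 was also lowest there, and its letters are not shown. The sequences are from RefSeq on build GRCm38.p6, in which 5 of the 6 genes were matched (Penk was not matched). Each is the 250 bases before the RefSeq start of the gene, read 5′ to 3′ on the strand of the gene, with capitals on matches to the motifs named in the next paragraph. Vipr1 lies at chr9:121642466-121642715 (plus strand), Gpr83 at chr9:14859960-14860209 (plus strand) and Ptger2 at chr14:44987861-44988110 (plus strand).
Gpr83: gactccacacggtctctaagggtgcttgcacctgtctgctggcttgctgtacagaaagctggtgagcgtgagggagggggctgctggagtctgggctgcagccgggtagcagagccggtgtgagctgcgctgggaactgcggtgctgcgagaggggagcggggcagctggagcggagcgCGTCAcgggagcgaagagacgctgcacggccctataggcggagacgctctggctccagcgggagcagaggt
Ptger2: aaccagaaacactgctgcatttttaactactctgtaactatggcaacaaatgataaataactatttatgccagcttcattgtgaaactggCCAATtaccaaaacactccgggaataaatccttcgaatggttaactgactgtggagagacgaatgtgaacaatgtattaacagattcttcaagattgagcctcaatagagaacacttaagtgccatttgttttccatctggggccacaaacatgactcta
Vipr1: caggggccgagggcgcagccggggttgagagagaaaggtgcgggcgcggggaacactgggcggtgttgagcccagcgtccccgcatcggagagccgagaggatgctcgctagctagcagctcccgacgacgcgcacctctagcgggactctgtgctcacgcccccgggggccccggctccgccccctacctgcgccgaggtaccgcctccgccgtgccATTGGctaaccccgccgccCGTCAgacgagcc

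The windows differed in base composition, with 66.8% G or C in Gpr83, 38% in Ptger2 and 72.8% in Vipr1, and with 32% in Gpr183 and 66.8% in Ptger4. The cyclic AMP response half-site TGACG, searched on both strands as all motifs here, matched in Gpr83 (from base -71, minus strand) and in Vipr1 (from base -13, minus strand), and in 17.8% of 32851 RefSeq windows of the same length. The letters CCAAT matched in Ptger2 (-160), Vipr1 (-32, minus strand) and Ptger4 (-75), and in 33.8% of all windows. The forkhead core TGTTTAC (3.17% of windows), the AP-1 motif TGANTCA (6.75%) and the TATA motif TATAAA (12.4%) had no match in any of the 5. The letters GGGCGG, which no other motif searched contains and which carry no capitals above, matched in Vipr1 and Ptger4 and in 32.7% of windows. A match is a run of letters and not evidence that a factor binds.

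**Figure D1:**
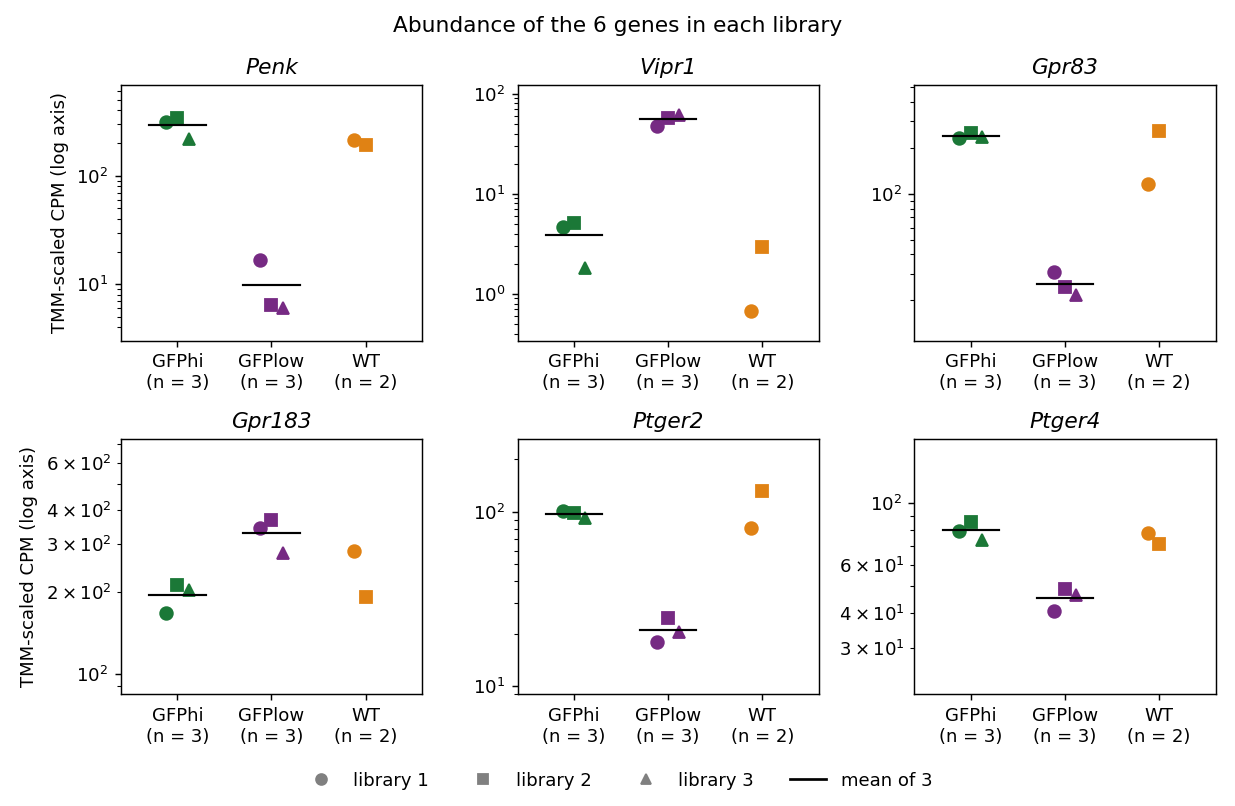
TMM-scaled CPM on log axes for the 6 genes in each library, with GFPhi in green, GFPlow in purple and WT in orange, symbols by library number and a line at the mean of 3. For Penk, Gpr83, Ptger2 and Ptger4 every GFPlow library lies below every other library, for Vipr1 every GFPlow library lies above, and for Gpr183 WT library 1 lies among the GFPlow libraries.

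Penk was high in both Foxp3+ groups and low in GFPlow. Penk (ENSMUSG00000045573, GRCm38 chromosome 4, 4133531 to 4138819, minus strand) was at 311, 344 and 218 CPM in GFPhi libraries 1, 2 and 3, at 16.9, 6.48 and 6.04 CPM in GFPlow libraries 1, 2 and 3, against 213 and 192 CPM in WT libraries 1 and 2. The groups GFPhi and GFPlow did not overlap, the WT libraries lay below the lowest GFPhi library, and GFPlow library 1 stood highest within its group. The log2 fold change was 4.89 ± 0.47 (SE) for GFPhi over GFPlow, a 29.6-fold difference, and without GFPlow library 1 it was 5.54. For GFPlow over WT it was -4.36 ± 0.47, and -4.28 ± 0.50 without WT library 1. For GFPhi over WT it was 0.52 ± 0.45, and 0.60 ± 0.56 without WT library 1. These 3 comparisons share libraries in pairs, so a low GFPlow level enters the first and the second of them. In bulk RNA, fewer cells that carry a transcript and less of it per cell cannot be told apart.

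Vipr1, the gene of the VPAC1 receptor for vasoactive intestinal peptide, was highest in GFPlow. Vipr1 (ENSMUSG00000032528, chromosome 9, 121642716 to 121672954, plus strand) was at 4.61, 5.08 and 1.82 CPM in GFPhi, at 47.5, 57.2 and 61.1 CPM in GFPlow, against 0.681 and 2.93 CPM in WT libraries 1 and 2. The GFPlow libraries lay far above all others, and GFPhi and WT overlapped. Vipr1 was 14.4-fold higher in GFPlow than in GFPhi, a log2 fold change of -3.85 ± 0.58 for GFPhi over GFPlow. Against WT the GFPlow level differed by 4.90 ± 0.73 on the log2 scale, and by 4.24 ± 0.60 without WT library 1. For GFPhi over WT the log2 fold change was 1.05 ± 0.61 with both WT libraries, 0.39 ± 0.49 without WT library 1 and 2.51 without WT library 2. Only 21 reads were counted for Vipr1 in WT library 1 and 170 in WT library 2, so the size of the fold against WT rests on few reads.

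Gpr83, like Penk, was lowest in GFPlow. Gpr83 (ENSMUSG00000031932, chromosome 9, 14860210 to 14870789, plus strand) was at 232, 252 and 235 CPM in GFPhi, at 30.5, 24.6 and 21.8 CPM in GFPlow, against 116 and 259 CPM in WT libraries 1 and 2. All GFPlow libraries were below all others, and the GFPhi libraries lay between the WT libraries. The log2 fold change was 3.23 ± 0.31 for GFPhi over GFPlow (9.36-fold), and it was 3.22 ± 0.13 without WT library 1. For GFPlow over WT it was -2.87 ± 0.33, and -3.33 ± 0.15 without WT library 1. For GFPhi over WT it was 0.36 ± 0.33 with both WT libraries, -0.11 ± 0.16 without WT library 1 and 1.08 without WT library 2, so its sign was set by which WT library was used.

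Ptger2 and Ptger4 encode EP2 and EP4, which bind the same ligand, prostaglandin E2. Ptger2 (ENSMUSG00000037759, chromosome 14, 44988195 to 45003820, plus strand) was at 101, 98.8 and 92.6 CPM in GFPhi, at 18, 24.5 and 20.3 CPM in GFPlow, against 81.1 and 132 CPM in WT libraries 1 and 2. Ptger4 (ENSMUSG00000039942, chromosome 15, 5206661 to 5244187, minus strand) was at 79.7, 86 and 73.9 CPM in GFPhi, at 40.6, 48.9 and 46.5 CPM in GFPlow, against 78.4 and 71.4 CPM in WT. For both genes the GFPlow libraries were the lowest of the 8, and GFPhi lay between the WT libraries for Ptger2 and overlapped them for Ptger4. The difference between GFPhi and GFPlow was 2.22 ± 0.23 on the log2 scale for Ptger2 (4.66-fold) and 0.82 ± 0.16 for Ptger4 (1.76-fold). For GFPlow over WT the log2 fold change was -2.35 ± 0.24 for Ptger2 (-2.65 ± 0.15 without WT library 1) and -0.72 ± 0.17 for Ptger4 (-0.65 ± 0.13 without it). For GFPhi over WT it was -0.13 ± 0.24 for Ptger2, -0.43 ± 0.16 without WT library 1 and 0.29 without WT library 2. For Ptger4 that value was 0.09 ± 0.17, and 0.16 ± 0.14 without WT library 1.

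The balance of the 2 receptor transcripts also differed between the sorts. Per length of exon sequence (RPKM), the ratio of Ptger2 to Ptger4 was 1.63, 1.47 and 1.6 in GFPhi, 0.566, 0.643 and 0.559 in GFPlow, and 1.32 and 2.36 in WT libraries 1 and 2. Ptger2 was the more abundant of the 2 in all 5 libraries of Foxp3+ cells, and Ptger4 in all 3 GFPlow libraries. The mean ratio was 1.57 ± 0.0835 (SD, n = 3) in GFPhi and 0.589 ± 0.0465 (SD, n = 3) in GFPlow. It comes from the values that chose the genes and has no test.

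Gpr183 had the smallest difference between GFPhi and GFPlow of the 6. Gpr183 (ENSMUSG00000051212, chromosome 14, 121952551 to 121965195, minus strand) was at 168, 212 and 204 CPM in GFPhi, at 344 (library 1), 368 and 278 CPM in GFPlow, against 283 and 191 CPM in WT libraries 1 and 2. GFPlow lay above GFPhi in all libraries, WT library 1 fell within the GFPlow range and WT library 2 within the GFPhi range. The log2 fold change was -0.76 ± 0.21 for GFPhi over GFPlow, a 1.7-fold higher level in GFPlow. It was 0.48 ± 0.24 for GFPlow over WT, and 0.79 ± 0.18 without WT library 1. For GFPhi over WT it was -0.28 ± 0.24, and 0.03 ± 0.17 without WT library 1.

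**Figure D2:**
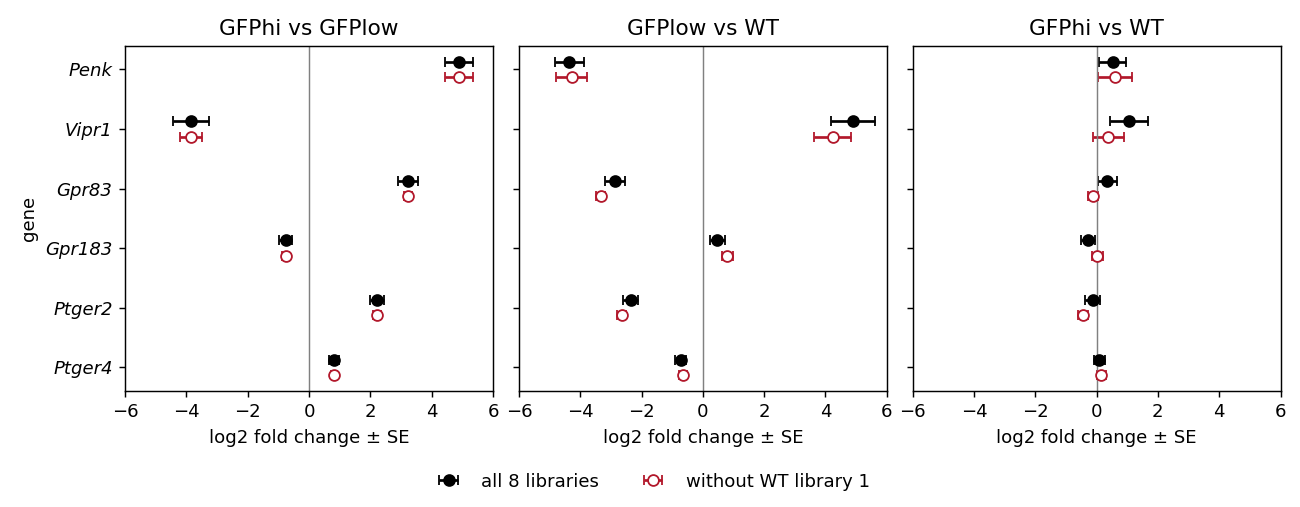
Log2 fold change with its standard error for the 6 genes in 3 comparisons, from edgeR with all 8 libraries (black) and without WT library 1 (red, open). GFPhi over GFPlow runs from -3.85 (Vipr1) to 4.89 (Penk), while GFPhi over WT stays between -0.28 and 1.05 with all libraries.

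By edgeR's quasi-likelihood test with Benjamini-Hochberg adjustment at 0.05, 5 of the 6 genes (all but Gpr183) were called between GFPhi and GFPlow, where 2.26% of all genes tested were called. Between GFPlow and WT, 4 of the 6 were called (not Gpr183 and Ptger4), against 3.3% of all genes. Between GFPhi and WT, 0 of the 6 were called by edgeR, DESeq2 or limma voom, and 0 had an unadjusted p under 0.05, against 0% of all genes called by edgeR. DESeq2 called 320 genes in that comparison, and 2588 genes had an unadjusted edgeR p under 0.05. Since the genes were chosen on these comparisons, nothing is read from the counts.

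Without WT library 1 all 6 were called between GFPhi and GFPlow (9.66% of all genes) and all 6 between GFPlow and WT (5.88%), and 0 between GFPhi and WT (0%). Without WT library 2, the log2 fold change of GFPhi over WT library 1 was 2.51 for Vipr1, 1.08 for Gpr83 and -0.51 for Gpr183. With any 1 of the 6 GFPhi and GFPlow libraries left out, Penk, Gpr83 and Ptger2 were called between GFPhi and GFPlow, and Vipr1 and Ptger4 were not. In those fits 105 to 177 of all genes were called. Ptger4 was also not called with the replicate number as a block over all 8 libraries, or with no filter on low counts. In each of these, 4 of the 6 were called, against 182 and 504 of all genes. When only the libraries of GFPlow and WT entered the fit, 0 of the 6 were called between them, and 33 of all genes.

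**Figure D3:**
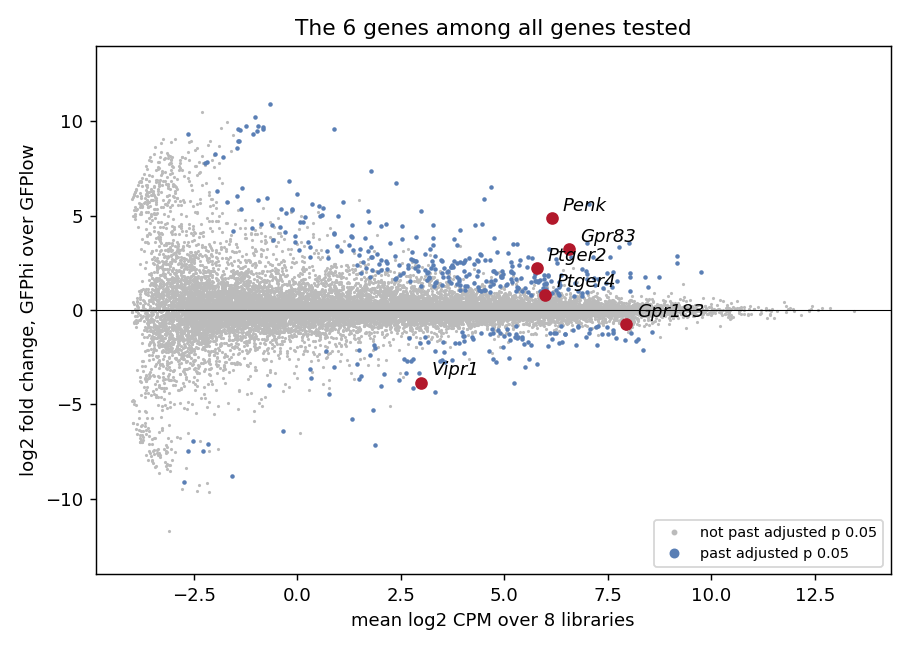
Log2 fold change of GFPhi over GFPlow against mean log2 CPM over the 8 libraries for the 18851 genes tested, with the 6 genes in red and other genes past an adjusted p of 0.05 in blue. Penk at 4.89 and Gpr83 at 3.23 lie among the larger differences at their abundance, and Gpr183 at -0.76 lies near the mass of genes.

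Read per length, the order of the 6 genes changed with the sort. In GFPhi it was Penk (178 ± 40 RPKM, SD, n = 3), Gpr183 (67.5 ± 8.04), Gpr83 (47 ± 2.06), Ptger2 (18.8 ± 0.861), Ptger4 (12 ± 0.906) and Vipr1 (0.661 ± 0.304), with no overlap between neighbours. In GFPlow it was Gpr183 (114 ± 16.1 RPKM), Vipr1 (9.53 ± 1.21), Ptger4 (6.82 ± 0.641), Penk (6.01 ± 3.77), Gpr83 (5.02 ± 0.875) and Ptger2 (4.03 ± 0.643). There Ptger4, Penk, Gpr83 and Ptger2 overlapped between neighbours, and Penk in GFPlow library 1 (10.4 RPKM) reached the range of Vipr1. Among all genes tested, Penk stood at percentile 98.3 of RPKM in GFPhi and 66.1 in GFPlow, and Vipr1 at percentile 30.6 in GFPhi and 73.9 in GFPlow. Gpr183 was at percentile 95.1 in GFPhi and 97.3 in GFPlow, a high level in either sort.

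Some of these genes share exon bases with a gene on the other strand, and the strand setting of the counting is not given. The antisense gene Gm17173 shares 246 exon bases with Ptger2 and had 1560, 1540 and 1370 reads in GFPhi, 207, 419 and 117 in GFPlow, and 883 and 2365 in WT libraries 1 and 2. Without the strand setting it is not known how reads in the shared stretch were counted for Gm17173 and for Ptger2 (5400, 5252 and 4997 reads in GFPhi). Gm49364, with 1 to 97 reads per library, shares 144 exon bases with Ptger2. The pseudogene Gm15937, with 0 to 5 reads per library, shares 1015 exon bases with Ptger4. Ttc33, with 1907 to 4095 reads per library, shares 82 exon bases with Ptger4. A830012C17Rik, with 0 to 64 reads per library, shares 233 with Penk. Whether these overlaps entered the ratio of Ptger2 to Ptger4 was not tested. Gpr83 and Vipr1 had no overlapping gene in GENCODE vM21.

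For each gene the 3 protein-coding genes of most similar pattern were taken by Pearson correlation of log2 CPM over the 8 libraries, among 8854 genes with a mean of at least 5 CPM. The correlations describe 8 libraries that share groups and depth, and carry no p. Penk was nearest to Cd81 (r = 0.995), Ergic1 (0.989) and Epcam (0.988). Cd81, a tetraspanin gene, was at 223 CPM in GFPhi, 52.4 CPM in GFPlow, and 206 and 204 CPM in WT. Gpr83 was nearest to Rcn1 (0.997), the titin gene Ttn (0.996) and Entpd1 (0.994), which encodes the ectonucleotidase CD39.

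Ptger2 was nearest to Gstt3 (r = 0.996), Il10rb (0.995) and Ikzf4 (0.994), the gene of the zinc finger factor Eos. Ikzf4 was at 166 CPM in GFPhi, 17.5 CPM in GFPlow, and 104 and 192 CPM in WT libraries 1 and 2. Ptger4 was nearest to Cradd (0.99), Supt3 (0.989) and Serpinc1 (0.978). Vipr1 was nearest to Cmah (0.992), Tnfrsf26 (0.991) and Dusp10 (0.991), and Gpr183 to Otulinl (0.982), Ppp2r5a (0.981) and Cd2ap (0.963). Over the 7 libraries without WT library 1, Ergic1 ranked first for Penk and Cmah first for Vipr1, and Cd2ap fell to rank 31 for Gpr183.

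The other genes of these pathways were taken from 8 lists of 89 genes in all, 88 of them in the table. Of these, 48 passed the filter and 35 had 10 or fewer reads in every library. Between GFPhi and GFPlow, 1 of the 48 was called by edgeR, in the direction of higher in GFPhi (Gnaq), against 2.26% of all genes, and between GFPlow and WT 1 of 48, lower in GFPlow (Gnaq again), against 3.3%. Between GFPhi and WT 0 of 48 were called by edgeR, DESeq2 or voom, with 3 at an unadjusted p under 0.05. The median log2 fold change of the 48 was -0.07 for GFPhi over GFPlow (0.01 over all genes), 0.37 for GFPhi over WT (0.08) and 0.55 for GFPlow over WT (0.02). Without WT library 1, over 53 list genes, these medians were -0.04 (0.00 over all genes), 0.16 (0.02) and 0.30 (0.03).

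Gnaq, the alpha subunit that links receptors to phospholipase C beta, was at 14.3, 13.2 and 10.9 CPM in GFPhi, at 4, 3.09 and 4.3 CPM in GFPlow, against 30.5 and 13.8 CPM in WT libraries 1 and 2. Every GFPlow library was below every other library. Gnaq was higher in GFPhi than in GFPlow by 1.75 ± 0.34 on the log2 scale (edgeR adjusted p = 0.0384), and lower in GFPlow than in WT by -2.54 ± 0.37 (adjusted p = 0.0115). With any 1 GFPhi or GFPlow library left out, the first adjusted p was 0.0982 to 0.18. Without WT library 1 the second difference was -1.85 ± 0.27 (adjusted p = 0.00734). Without GFPlow library 1 or GFPlow library 2 the second adjusted p was 0.0574 and 0.0596.

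The WT libraries differed from each other, and leaving out either one raised the calls over all genes between GFPhi and GFPlow from 426 to 1984 (without WT library 1) or 1978 (without WT library 2). Without WT library 1, 10 of 53 list genes were called between GFPhi and GFPlow (9.66% of all genes), 4 higher and 6 lower in GFPhi. The others named here were named after their values were seen, with values from that fit. Higher in GFPhi were Cpe, the carboxypeptidase that trims peptide hormones (4.37 ± 0.74, adjusted p = 0.0094), Pam, which amidates them (1.46 ± 0.34, adjusted p = 0.0355), and Ptger3, the EP3 receptor gene. Cpe was at 5.77, 10 and 11.6 CPM in GFPhi, at 0.859, 0.061 and 0.387 CPM in GFPlow, against 0.357 and 7.97 CPM in WT libraries 1 and 2. WT library 1 was thus at the level of GFPlow and WT library 2 at that of GFPhi.

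Ptger3 was at 3.49, 1.54 and 2.54 CPM in GFPhi (186, 82 and 137 reads), had 0 reads in all 3 GFPlow libraries, and had 0 and 133 reads in WT libraries 1 and 2. Against a floor of 3 reads over the GFPlow group it was at least 130-fold higher in GFPhi (2.52 ± 0.972 CPM, SD, n = 3), a limit that covers counting error only. Its edgeR adjusted p was 0.12 with all libraries and 0.00212 without WT library 1. Of the other prostanoid receptor genes, Tbxa2r, the thromboxane receptor, was the most abundant per length (59.2 ± 4.86 CPM in GFPhi, 75.4 ± 8.68 in GFPlow, adjusted p = 0.974) and Ptgir, the prostacyclin receptor, the next (4.16 ± 2.32 and 3.9 ± 0.787 CPM, adjusted p = 1). Ptgdr, Ptgdr2 and Ptgfr had 10 or fewer reads in every library.

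Among those lower in GFPhi without WT library 1 were Ramp3, Calcrl, Gpr171, Grk6 and Arrb2. Calcrl is the receptor of calcitonin gene-related peptide and adrenomedullin, and Ramp1 and Ramp3 are the partner proteins that set which of these it binds. Ramp3 was at 1.91, 1.49 and 2.67 CPM in GFPhi, at 10.9, 13.2 and 14.2 CPM in GFPlow, against 0 and 1.09 CPM in WT, a difference of -2.66 ± 0.28 without WT library 1 (adjusted p = 0.00112) and an adjusted p of 0.241 with all libraries. Calcrl averaged 12.0 ± 3.77 CPM (SD, n = 3) over the GFPhi libraries and 23.5 ± 4.15 CPM in GFPlow (adjusted p = 0.0484 without WT library 1 and 0.256 with it). Ramp1, the most abundant of its list per length, was at 150 ± 9.07 and 170 ± 22 CPM (adjusted p = 1).

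Gpr171, a receptor gene reported to bind a peptide of the precursor Pcsk1n, was at 67.7 ± 6.62 CPM in GFPhi and 103 ± 14.4 CPM in GFPlow (adjusted p = 0.0171 without WT library 1 and 0.237 with it).

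The genes that shut receptors off had small differences. Grk6, a receptor kinase, was at 76.3 ± 4.77 CPM in GFPhi and 121 ± 7.85 CPM in GFPlow, and Arrb2, the gene of beta-arrestin 2, at 18.9 ± 2.02 and 28.8 ± 1.56 CPM. Their adjusted p was 0.0019 and 0.0209 without WT library 1, and 0.0713 and 0.166 with all libraries. Gnai2, the inhibitory alpha subunit and the most abundant of its list per length, was at 401 ± 15.1 CPM in GFPhi and 432 ± 4.69 CPM in GFPlow (adjusted p = 1).

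Between GFPlow and WT, 7 of 53 list genes were called without WT library 1 (5.88% of all genes), 4 higher in GFPlow, Ramp3, Gnai2 and Grk6 among them, and 3 lower (Cpe, Ptger3 and Gnaq). Gnai2 differed by 0.30 ± 0.07 there (adjusted p = 0.0463). Between GFPhi and WT library 2 none of the 53 was called by edgeR or DESeq2.

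Most ligand genes were scarce. Opioid genes other than Penk were low, Pomc at 2.08 ± 0.817 CPM in GFPhi and 1.31 ± 0.168 CPM in GFPlow and the mu receptor gene Oprm1 at 1.74 ± 0.636 and 1.44 ± 0.484 CPM (edgeR adjusted p = 0.77 and 1). Pdyn and the receptor genes Oprd1 and Oprk1 had 10 or fewer reads in every library, as had Vip and Adcyap1, the ligand genes of VPAC1. The ligand genes Gal and Npy were counted mainly in 1 library each, Gal with 1225 reads in GFPlow library 2 and at most 18 elsewhere, and Npy with 165 reads in WT library 1 and at most 33 elsewhere, and are named after their values were seen. Of the list of oxysterol synthesis and breakdown enzymes, Ch25h, Cyp7b1, Hsd3b7 and Cyp7a1 had 10 or fewer reads in every library. Cyp27a1 was counted in 2 libraries, GFPhi library 3 (31 reads) and GFPlow library 3 (87 reads). Dpp3, a peptidase that degrades enkephalins, was at 66.3 ± 3.06 and 63.3 ± 1.99 CPM, and the chaperone gene Scg5 at 6.14 ± 2.39 and 6.16 ± 0.415 CPM (adjusted p = 1 for each). Of prostaglandin synthesis, Ptgs2 had 10 or fewer reads, Ptges3 was at 110 ± 3.76 and 108 ± 4.75 CPM (adjusted p = 1) and Ptges2 at 26.9 ± 2.9 and 21.4 ± 2.28 CPM (adjusted p = 0.782).

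Markers of other cells were summed over each list because B cells, dendritic cells and macrophages also express Gpr183 or prostaglandin receptors. The B cell list (6 genes) summed to 44.6 to 51.7 CPM in GFPhi, 5.59 to 11.8 CPM in GFPlow, and 73.8 and 53 CPM in WT, nearly all of it Cd79b (43.2 to 50.1 CPM in GFPhi). Ms4a1 was at most at 0.828 CPM. The B cell list was thus lower in GFPlow, where Gpr183 was higher. The myeloid list (6 genes) summed to 1.62 to 27.2 CPM in GFPhi, 6.56 to 237 CPM in GFPlow, and 9.25 and 34.1 CPM in WT. The 237 CPM was GFPlow library 3 alone, 197 CPM of it Lyz2. GFPlow libraries 1 and 2, at 24.2 and 6.56 CPM, lay below GFPhi library 3 (27.2 CPM) and above GFPhi libraries 1 and 2 (2.91 and 1.62 CPM). The NK list (4 genes) summed to 2.2 to 6.3 CPM in GFPhi and 18.5 to 49.5 CPM in GFPlow. In GFPlow libraries 1 and 2 that sum was all Klrb1c and Eomes, with 0 reads of Ncr1 and Klra8. GFPlow library 3 held 403 reads of Ncr1 and 144 of Klra8. The dendritic list (5 genes) summed to 6.19 to 9.15 CPM in GFPhi and 4.15 to 7.17 CPM in GFPlow, with no read of Siglech. Whether NK or myeloid RNA entered the levels of Vipr1 and Gpr183 was not tested.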

How the data were processed

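RNA was measured in 8 libraries. The values the authors deposited are raw counts, in 1 table with a row for each Ensembl identifier. Per the submitters' processing notes, the tools were HTSeq 0.11.2, HISAT2 2.1.0, SAMtools 1.9, R 4.0 and edgeR, with build GRCm38. The annotation and the strand setting were not given in the sources used here. Identifiers were named with GENCODE vM21 (54808 of 54837 matched), whose exon lengths also gave RPKM. Groups came from the sample labels. The 6 genes and all lists were chosen with earlier results of these data known.

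Counts were filtered with filterByExpr, scaled by TMM and fitted with edgeR 4.0.16 (glmQLFit and glmQLFTest, robust, R 4.3.3) in 1 model of 3 groups over all 8 libraries, with 5 residual degrees of freedom. The Benjamini-Hochberg adjustment covered every gene that passed the filter, and 0.05 was the threshold. SEs are the log2 fold change over the square root of F. The procedure was also run on simulated counts with 1 mean profile for all libraries, apart from changes added to GFPhi. No simulated library stood apart as WT library 1 does, so nothing is read from that run for these data. Alternatives were other scalings and filters, DESeq2 1.42.0, limma 3.58.1 voom, a replicate block, fits of 2 groups and leaving out each library. Named list genes are those called and the 2 most abundant per length in each list. Gnai3 was not analysed here, and some list genes are not reported here.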

Additional observations from a re-analysis of the deposited data

How the results depend on the processing

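For GFPhi over GFPlow and GFPlow over WT, no fold change of the 6 genes changed sign under any alternative run. For GFPhi over WT, Gpr83 and Gpr183 (1.08 and -0.51 without WT library 2) had the other sign without WT library 1 (-0.11 and 0.03). Ptger2 (-0.43 to 0.29) and Ptger4 (-0.06 to 0.16) also changed sign between runs, and Penk and Vipr1 did not. Genes called between GFPhi and GFPlow numbered 426, against 1375 by DESeq2, 3246 by DESeq2 without WT library 1, 2271 by voom and 2105 with only the libraries of the 2 groups, and 105 (without GFPhi library 1) to 1984 (without WT library 1) with 1 library left out. Pathway genes called there numbered 1, against 6, 12, 10 and 10 in the same order, 2 with at least 5 CPM in 2 libraries, 0 with upper-quartile scaling, and 0 to 10 with 1 library left out. Between GFPhi and WT 0 genes were called, against 320 by DESeq2, 72 by DESeq2 without WT library 1, 1 with no filter, and 0 to 8234 (without WT library 2) with 1 left out, and pathway genes 0, against 0 to 21. Between GFPlow and WT 623 genes were called, against 3243, 2449, 72 by voom, 33 with only the 2 groups, and 213 (without GFPlow library 1) to 9002 (without WT library 2), and pathway genes 1, against 13, 12, 0, 0 and 0 to 23. The cause was not tested. Where a single WT library was left, it was assumed to vary like the other groups.

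With the replicate number as a replicate block, calls were 182 between GFPhi and GFPlow (1752 with only the 6 transgenic libraries), 0 between GFPhi and WT and 158 between GFPlow and WT, and pathway calls were 0 (10), 0 and 0. Same-numbered GFPhi and GFPlow libraries deviated together with r = 0.067, 0.066 and 0.149 for numbers 1, 2 and 3. Each library correlated best with its own number, and unlike numbers had r from -0.112 to 0.052. With 3 libraries per group, values this small cannot decide whether the numbers mark pairs. The main model did not take the numbers as pairs. GFPhi library 3 and GFPlow library 3 both held Xist (237 and 184 CPM) and no Ddx3y read, while libraries 1 and 2 of both groups held Ddx3y at 194 to 229 CPM. Among the 6 genes, the block over all 8 libraries ended the call of Ptger4 between GFPhi and GFPlow and left 4 called between GFPlow and WT.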
